A study of Homo sapiens with 4 samples.

Results

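The genes described here are 8 subunits of voltage-gated sodium channels, 8 of the 35211 genes in the deposited count table: SCN3A, SCN2A, SCN1A, SCN9A, SCN8A and SCN4A, which encode pore-forming alpha subunits, and SCN3B and SCN4B, which encode auxiliary beta subunits. SCN3A was picked for its large rise in PC3, and the other 7 genes were taken with it as members of the same family, so the values of SCN3A in that comparison are given as a description and without a test. PC3 and DU145 are established human prostate cancer cell lines derived from metastases. Cells of each line were transfected with an overexpression plasmid for circ0003553, a circular RNA whose sample titles name the gene RCAN3, or with a negative control plasmid. Ribosomal RNA-depleted, stranded total RNA was sequenced, with 1 library for each of the 4 groups: PC3 with circ0003553, PC3 with control plasmid, DU145 with circ0003553 and DU145 with control plasmid.

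Voltage-gated sodium channels open when the membrane depolarises, let sodium into the cell and then close within milliseconds by fast inactivation, which gives the rising phase of the action potential in nerve and muscle. A single alpha subunit forms the pore and carries the voltage sensors and the inactivation gate, while beta subunits, which also act as cell adhesion molecules, alter gating and the delivery of the channel to the surface. Sodium channels are also found in cells that do not fire action potentials, and sodium currents have been recorded from metastatic prostate cancer lines.

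The alpha subunit genes are close copies of each other, which matters for reads of 150 bases. SCN3A lies on the minus strand at chr2:165087522-165204067 (hg38, the build of the deposited table), in a cluster with SCN2A (plus strand, chr2:165239372-165392732), SCN1A (minus strand, chr2:165989160-166149214) and SCN9A (minus strand, chr2:166195185-166375993). SCN8A lies on the plus strand at chr12:51590266-51812864 and SCN4A on the minus strand at chr17:63938554-63972918. The beta subunit genes SCN3B (chr11:123629187-123655244) and SCN4B (chr11:118133377-118152888) both lie on the minus strand of chromosome 11. Aligned to the 6003 coding bases of SCN3A, the coding sequence was 84.5% identical in SCN2A, 82.4% in SCN1A, 78.8% in SCN9A, 73.7% in SCN8A and 71.0% in SCN4A. Of the 8942 windows of 150 bases in the SCN3A transcript (GENCODE release 29, GRCh38, the same assembly as hg38), 57 also occurred in SCN9A and 0 in SCN2A, SCN1A, SCN8A or SCN4A. These 57 windows lie in the longest run shared with SCN9A, 206 coding bases. A read that lies wholly within it cannot be assigned to either gene by its own sequence, though a mate outside the run could place it. The longest runs shared with the other alpha subunits were 137 bases in SCN2A, 110 in SCN1A, 45 in SCN4A and 29 in SCN8A.

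Library totals ranged from 33438509 to 39488890 counts, so that 3 counts, the limit that a count of 0 allows, corresponded to 0.0760 to 0.0897 CPM (counts scaled to the library total). From 70.3% to 75.3% of the values between 1 and 20 were even in the 4 libraries, so a read pair may often have been counted as 2, and intervals from halved counts are given where they differ in what they hold. Intervals of levels and of ratios are 95% intervals that cover counting error only. Those of the log2 fold changes across lines come from the standard errors of a fit to all 4 libraries. Both lines carried the epithelial keratin KRT8, at 19117 and 15637 counts in PC3 with circ0003553 and control and at 112105 and 103473 counts in DU145 with circ0003553 and control. STAT3, which PC3 is known to have lost, had 6 and 2 counts in PC3 and 6160 and 7479 in DU145, in the same order of plasmids. RCAN3 had 3798 and 1212 counts in PC3 with circ0003553 and control and 816 and 639 in DU145, at ratios of 2.61 (2.45 to 2.79) and 1.37 (1.24 to 1.52). Circular and linear RNA of RCAN3 are not distinguished by these counts. Summed over 8 neuronal markers, counts were 58 in PC3 with circ0003553, 61 in PC3 with control, 151 in DU145 with circ0003553 and 189 in DU145 with control, and SNAP25, a synaptic vesicle fusion protein, had 6, 8, 85 and 86 counts in the same libraries. ELAVL3, an RNA-binding protein of neurons, had 2 counts in PC3 with circ0003553 and 0 in the other 3 libraries.

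SCN3A encodes an alpha subunit best known from the embryonic and newborn brain. It had 2510 counts in PC3 with circ0003553 and 52 in PC3 with control, and 22 in DU145 with circ0003553 and 4 in DU145 with control. The PC3 circ0003553 library stood far above the other 3, and in DU145 too the circ0003553 library was the higher one, at a much lower level. On the scale of the deposited RPKM values, which are counts scaled to gene length and library total, the level was 6.48 (6.23 to 6.74) in PC3 with circ0003553 and 0.159 (0.118 to 0.208) in PC3 with control, and 0.0615 (0.0386 to 0.0932) in DU145 with circ0003553 and 0.0107 (0.00292 to 0.0274) in DU145 with control. The ratio of circ0003553 to control, after scaling by trimmed mean of M-values (TMM), was 40.2 in PC3 (30.6 to 54.0; 27.3 to 61.8 with counts halved) and 5.91 in DU145 (2.01 to 23.6; 1.29 to 54.8 with counts halved). Within each line 1 library was set against 1 library, so no replicate error is known for either ratio.

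In PC3, SCN3A ranked 1 of 17363 genes with at least 50 counts in the line by this ratio on a log2 scale with a prior count of 2, at 5.28. In DU145 its 26 counts left it under that minimum. Among the genes detected in each library, 79.2% had a lower RPKM than SCN3A in PC3 with circ0003553 and 23.3% in PC3 with control, against 10.9% in DU145 with circ0003553 and 1.19% in DU145 with control. The gene was therefore in the upper part of the expressed range in 1 library and in the lower part in the other 3. Between the control libraries alone, SCN3A was 15.9 times as high in PC3 as in DU145 (5.85 to 60.5).

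**Figure D1:**
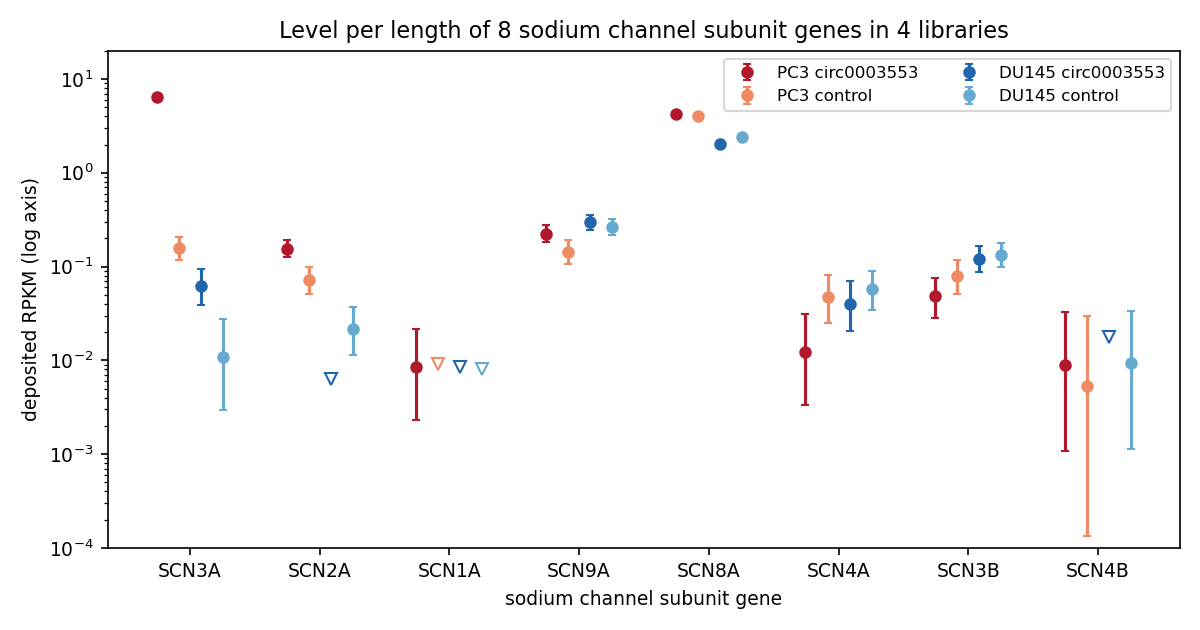
Deposited RPKM (log axis) of the 8 subunit genes in each of the 4 libraries, with exact Poisson 95% intervals of the counts; open triangles mark libraries with 0 counts, drawn at the upper limit. SCN3A at 6.48 in PC3 with circ0003553 lies above SCN8A, the highest of the 8 genes in the other 3 libraries.

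Counts of AC013463.2, a gene on the opposite strand that shares 442 exon bases with SCN3A (4.51% of the exon bases of SCN3A and 14.7% of its own), were high in the same library. It had 153 counts in PC3 with circ0003553 and 9 in PC3 with control, a ratio of 14.2 (7.26 to 31.5), and 3 in DU145 with circ0003553 and 0 in DU145 with control. The strand setting of the counting is not given in the sources used here, so reads of the 2 genes in their shared bases cannot be told apart. The 153 counts of AC013463.2 in PC3 with circ0003553 compare with 2510 of SCN3A.

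SCN8A, the alpha subunit of the axon initial segment and nodes of Ranvier in neurons, was the main sodium channel gene of both lines with the control plasmid. It had 2295 counts in PC3 with circ0003553 and 1828 in PC3 with control, and 1021 in DU145 with circ0003553 and 1261 in DU145 with control. Both PC3 libraries lay above both DU145 libraries. Per length, the levels were 4.23 and 3.98 RPKM in PC3 with circ0003553 and control, and 2.04 and 2.41 RPKM in DU145 with circ0003553 and control. The ratio of circ0003553 to control was 1.05 in PC3 (0.983 to 1.11) and 0.870 in DU145 (0.800 to 0.945). All 896 exon bases of RP11-923I11.3, a gene on the opposite strand, lie in exons of SCN8A, and that gene had 64 to 86 counts in the 4 libraries.

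SCN2A, the alpha subunit next to SCN3A in the cluster and common in excitatory neurons of the brain, had 98 counts in PC3 with circ0003553 and 38 in PC3 with control, and 0 in DU145 with circ0003553 and 13 in DU145 with control. It was higher with circ0003553 in PC3 and lower with circ0003553 in DU145. The PC3 ratio was 2.15 (1.46 to 3.21; 1.24 to 3.86 with counts halved). In DU145 SCN2A was at least 4.03-fold lower with circ0003553 when a floor of 3 counts is taken for that library, and at least 2.17-fold lower with counts halved. The 95% interval of the DU145 ratio was wider than this floor implies, reaching up to 0.352, or 0.745 with counts halved. The longest run that SCN2A shares with SCN3A is 137 bases, shorter than a read of 150. What part the 2510 SCN3A counts have in the PC3 value of SCN2A was not tested.

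SCN9A, the alpha subunit of pain-sensing neurons, had 92 counts in PC3 with circ0003553 and 50 in PC3 with control, and 112 in DU145 with circ0003553 and 104 in DU145 with control. Its PC3 ratio was 1.53 (1.07 to 2.21), but with counts halved the interval included 1 (0.922 to 2.60), and its DU145 ratio was 1.16 (0.878 to 1.53). SCN9A shares a run of 206 bases with SCN3A, and what part the 2510 SCN3A counts have in its PC3 value was not tested. SCN1A, the alpha subunit of inhibitory interneurons, had 4 counts in PC3 with circ0003553 and 0 in the other 3 libraries, too few for a comparison. AC010127.3, a gene on the opposite strand, shares 511 exon bases with SCN9A and 469 with SCN1A. It had 5 counts in PC3 with circ0003553 and 3 in PC3 with control, and 1 in DU145 with circ0003553 and 0 in DU145 with control.

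SCN4A, the alpha subunit of skeletal muscle, had 4 counts in PC3 with circ0003553 and 13 in PC3 with control, and 12 in DU145 with circ0003553 and 18 in DU145 with control. Its ratio was 0.256 in PC3 (0.0609 to 0.829), where the interval from halved counts included 1 (0.0241 to 1.25), and 0.716 in DU145 (0.315 to 1.57). Of the beta subunits, SCN3B had 18 counts in PC3 with circ0003553 and 25 in PC3 with control, and 42 in DU145 with circ0003553 and 48 in DU145 with control. Its ratios were 0.600 in PC3 (0.308 to 1.14) and 0.940 in DU145 (0.606 to 1.45), neither apart from 1 beyond counting error. SCN4B had 2 counts in PC3 with circ0003553 and 1 in PC3 with control, and 0 in DU145 with circ0003553 and 2 in DU145 with control, all at or under the floor.

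**Figure D2:**
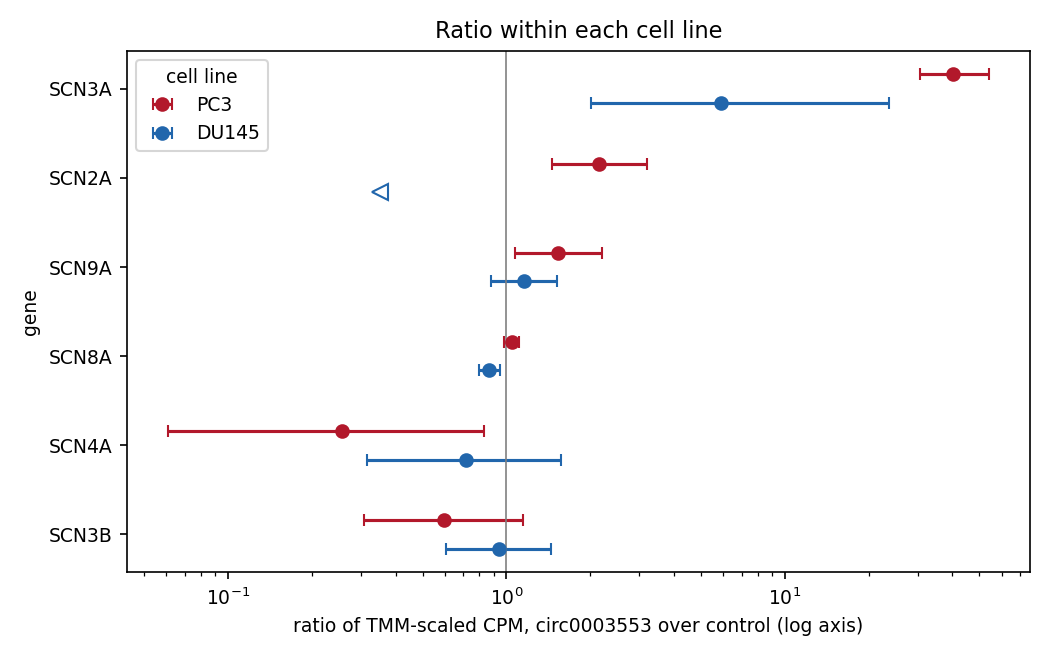
Ratio of TMM-scaled CPM, circ0003553 over control (log axis), within PC3 and within DU145, with exact conditional binomial 95% intervals; the open triangle is the upper limit for SCN2A in DU145, which had 0 counts with circ0003553, and SCN1A and SCN4B are left out. SCN3A, which was picked for its large rise in PC3, lies at 40.2 there. The PC3 ratios of the other genes run between 0.256 and 2.15.

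With at least 50 counts in PC3, 4 of the 8 genes could be set against a 2-fold threshold. Of these, 2 (SCN3A and SCN2A) were at least 2-fold higher with circ0003553, where 0.824% of 17363 genes were, and 0 were at least 2-fold lower, where 0.334% were. SCN3A was chosen on this contrast, so the count says nothing of the group. In DU145, 3 genes reached 50 counts (SCN8A, SCN9A and SCN3B), and 0 were at least 2-fold higher or lower, where 1.03% and 0.992% of 17650 genes were.

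The make-up of sodium channel RNA differed between the PC3 libraries. The RPKM of the 8 genes summed to 11.2 in PC3 with circ0003553 and 4.49 in PC3 with control, and to 2.56 in DU145 with circ0003553 and 2.91 in DU145 with control. SCN3A made up 58.0% of this sum in PC3 with circ0003553 and 3.54% in PC3 with control, against 2.40% in DU145 with circ0003553 and 0.369% in DU145 with control. SCN8A made up 37.9% in PC3 with circ0003553, 88.7% in PC3 with control, 79.7% in DU145 with circ0003553 and 83.0% in DU145 with control. The RPKM of SCN8A itself hardly differed between the PC3 libraries, at 4.23 and 3.98, so its smaller share with circ0003553 goes with the larger sum.

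**Figure D3:**
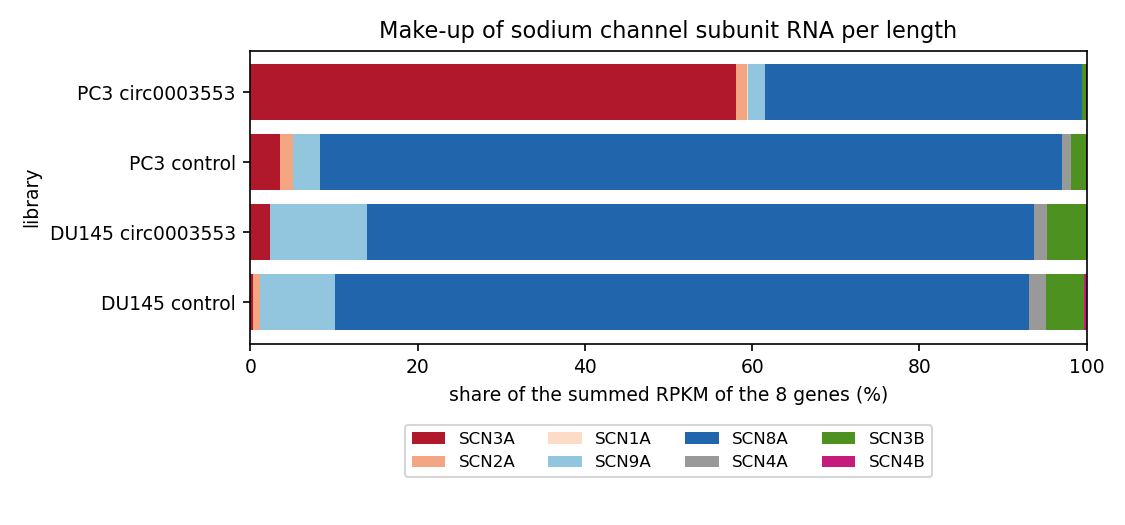
Share (%) of each gene in the summed RPKM of the 8 subunit genes, 1 bar per library. SCN3A fills 58.0% of the bar of PC3 with circ0003553, while SCN8A fills from 79.7% to 88.7% of the other 3 bars.

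By level per length, SCN3A was first and SCN8A second in PC3 with circ0003553, with intervals that did not overlap. In PC3 with control SCN8A was first, and SCN3A at 0.159, SCN9A at 0.144, SCN3B at 0.0790, SCN2A at 0.0713 and SCN4A at 0.0471 RPKM followed with each interval overlapping the next. In DU145 the order with either plasmid was SCN8A, SCN9A and SCN3B. The next in order was SCN3A with circ0003553, whose interval overlapped that of SCN3B, and SCN4A with control, whose interval did not.

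Across both lines, the plasmids were compared by edgeR's quasi-likelihood test with the line as a block, over the 21731 genes that passed the low-count filter. There were 6 of the 8 genes among them, and SCN1A and SCN4B were not tested. The lines act as the replicates and leave 1 residual degree of freedom, with moderation across genes adding a prior of 13.43, so the standard errors rest mostly on other genes. None of the 5 tested subunits other than SCN3A passed a Benjamini-Hochberg adjusted p of 0.05 (0 of 5), where 0.465% of all tested genes did, 0.396% higher and 0.0690% lower. Likewise 0 of the 5 had an unadjusted p under 0.05 in edgeR, where 8.88% of all tested genes did. Limma-voom called 0 of the 5, and DESeq2 called 0 of the 2 for which it gave an adjusted p. The log2 fold changes of circ0003553 over control were 0.61 for SCN2A (95% interval -0.23 to 1.45), 0.38 for SCN9A (-0.17 to 0.92), -0.06 for SCN8A (-0.30 to 0.17), -0.31 for SCN3B (-1.13 to 0.50) and -0.99 for SCN4A (-2.27 to 0.30). The interval of SCN8A was the narrowest of these 5, while those of SCN2A, SCN3B and SCN4A each held changes larger than 2-fold. For SCN2A the fitted value joins opposite directions in the 2 lines, and DESeq2 gave it the other sign, at -1.59.

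Between the lines, the same edgeR fit called 3 of the 5 subunits, where 66.0% of all tested genes were called (33.1% higher and 32.9% lower in PC3), so the count is near the background. SCN2A was higher in PC3, with a log2 difference of 3.40 ± 0.47 (SE; edgeR, Benjamini-Hochberg adjusted p = 1.55e-05). From CPM with a prior count of 2, the difference was 5.57 between the circ0003553 libraries alone and 1.68 between the control libraries alone. The 5.57 sets 98 counts in PC3 against 0 in DU145, so its size depends on the prior count. SCN8A was also higher in PC3, by 0.96 ± 0.11 on the log2 scale (SE; edgeR adjusted p = 2.19e-06), with 1.09 between the circ0003553 libraries and 0.83 between the control libraries. SCN3B was lower in PC3, at a log2 difference of -0.94 ± 0.39 (SE; edgeR adjusted p = 0.0441). SCN3B did not pass under 4 of the alternatives, where its Benjamini-Hochberg adjusted p was 0.0605 in limma-voom, 0.380 in DESeq2, 0.0646 with edgeR's older dispersion estimate and 0.0789 in edgeR with no low-count filter. SCN9A and SCN4A did not pass, at log2 differences of -0.54 ± 0.26 (edgeR adjusted p = 0.0775) and -0.66 ± 0.60 (edgeR adjusted p = 0.347).

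The PC3 ratios of genes around SCN3A are given as a description. SCN3A was picked for its large rise in PC3, where it ranked 1 of 17363 genes. Smaller ratios in its neighbours were therefore set in advance. Within 2 Mb of its midpoint lie 23 genes of the table, of which 10 were protein-coding with at least 50 counts over the 4 libraries. The PC3 ratios of the 9 other than SCN3A ran between 0.659 in GRB14, an adaptor that binds the insulin receptor, and 2.15 in SCN2A. CSRNP3, the first protein-coding neighbour beyond SCN2A, had 270 counts in PC3 with circ0003553 and 205 in PC3 with control, a ratio of 1.10 (0.911 to 1.32). GALNT3, which starts O-linked glycosylation, and TTC21B, a protein of cilium transport, had PC3 ratios of 1.03 (0.965 to 1.11) and 1.10 (1.02 to 1.20). On the other side of SCN3A, COBLL1 had a PC3 ratio of 0.947 (0.778 to 1.15) and FIGN, a microtubule-severing enzyme, of 1.33 (1.08 to 1.63). XIRP2, an actin-binding protein of muscle, had 75 counts in PC3 with circ0003553 and 44 in PC3 with control, and 22 in DU145 with circ0003553 and 10 in DU145 with control. Across lines, edgeR called 0 of these 9 genes at a Benjamini-Hochberg adjusted p of 0.05 and had 0 at an unadjusted p under 0.05, where 0.465% and 8.88% of all tested genes were, so the counts say nothing particular of the neighbourhood. Limma-voom called 0 of the 9, and DESeq2 0 of the 6 with an adjusted p. AC013463.2, which is not among the 9, was called in the same edgeR fit. Its log2 fold change was 3.82 (Benjamini-Hochberg adjusted p = 0.0017). It shares exon bases with SCN3A, which was chosen on this contrast, so the call may not be independent of SCN3A.

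**Figure D4:**
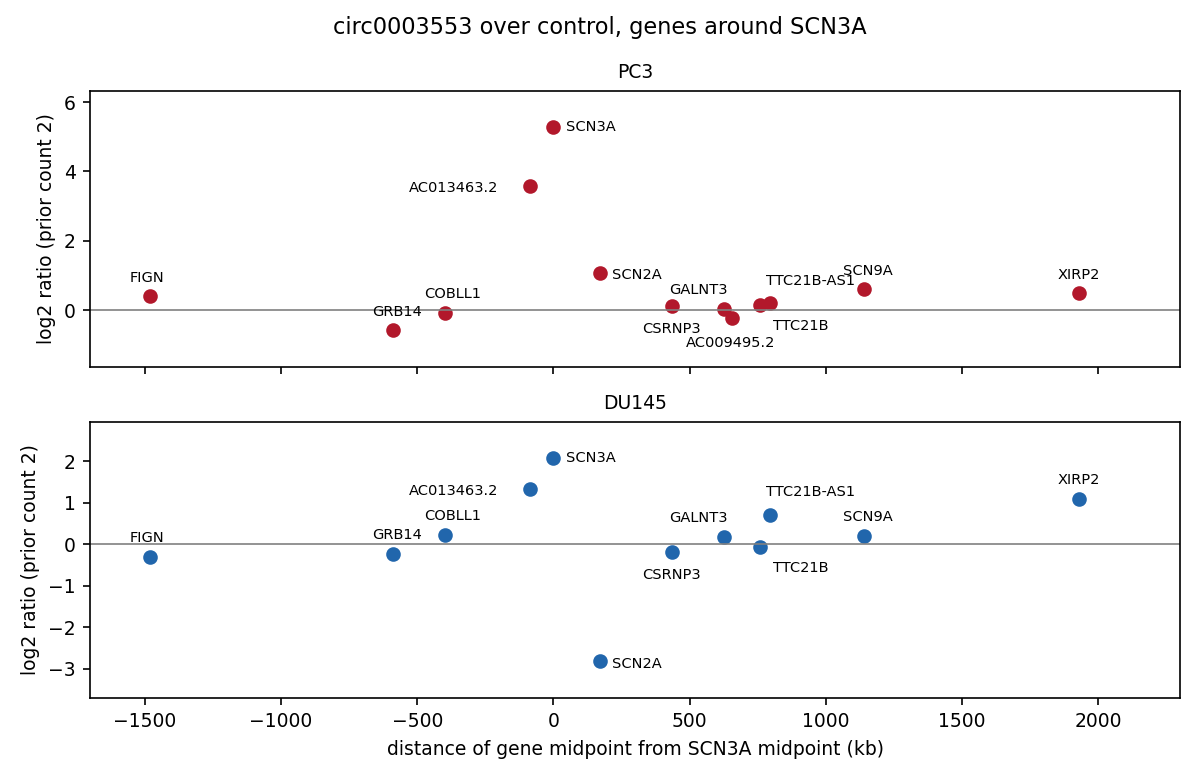
Log2 ratio of circ0003553 over control (CPM with a prior count of 2) against the distance in kb of each gene's midpoint from that of SCN3A, in PC3 (above) and DU145 (below), for genes within 2 Mb with at least 50 counts over the 4 libraries; genes at 0 in both libraries of a line are not drawn. SCN3A, which was picked for its large rise in PC3, is at 5.28 there, and it and the overlapping AC013463.2 stand apart from the rest.

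Other genes of the sodium channel family and of related channels were looked at as lists. Among other voltage-gated sodium channel genes, SCN2B, SCN7A, SCN10A and SCN11A had at most 4 counts in any library.

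Proteins that bind, traffic or modify sodium channels made up a list of 23 genes, all tested, of which 0 rose and 0 fell with circ0003553 in edgeR, where 0.396% and 0.0690% of all tested genes did. Of these 23, 6 had an unadjusted p under 0.05, where 8.88% of all tested genes did. Limma-voom called 0 of the 23, and DESeq2 0 of the 20 with an adjusted p. Their median log2 fold change was 0.05, beside 0.0030 over all tested genes. The lowest Benjamini-Hochberg adjusted p in edgeR was 0.121, for DLG1, a membrane scaffold, with 1729 counts in PC3 with circ0003553 and 1855 in PC3 with control, and 5889 in DU145 with circ0003553 and 8493 in DU145 with control. Its log2 fold change was -0.40 ± 0.10 (SE), and its ratio was 0.776 in PC3 and 0.745 in DU145. The other lists were the sodium leak channel complex (3 tested), epithelial and acid-sensing sodium channels (5), sodium pumps and exchangers (10), voltage-gated calcium channel subunits (12), voltage-gated potassium channel subunits (15) and neuronal genes bound by REST, the repressor that keeps neuronal genes off in other cells (16). The median log2 fold changes were 0.25, -0.19, -0.05, -0.11, -0.01 and 0.03 in the order named. Over all 8 lists, edgeR called 0 of 86 tested genes and had 8 at an unadjusted p under 0.05, both near the background of 0.465% and 8.88% of all tested genes. Of the 8 at an unadjusted p under 0.05, 6 were among the 23 sodium channel partners, where the share was above that background. Limma-voom called 0 of the 86, and DESeq2 0 of the 57 with an adjusted p. Over 6 lists of cell type markers, edgeR called 0 of 12 tested genes, with 0 at an unadjusted p under 0.05, too few genes to be set apart from the same background. Limma-voom called 0 of the 12, and DESeq2 0 of the 8 with an adjusted p. REST itself had 1812 counts in PC3 with circ0003553 and 1384 in PC3 with control, and 1554 in DU145 with circ0003553 and 1561 in DU145 with control, at a log2 fold change of 0.11 ± 0.10 (SE). VGF, a secreted neuronal peptide precursor, was the only listed gene with at least 50 counts in a line that was 2-fold apart there: it had 101 counts in DU145 with circ0003553 and 34 in DU145 with control, a ratio of 3.19 (2.14 to 4.85), and 134 in PC3 with circ0003553 and 154 in PC3 with control, a ratio of 0.725 (0.570 to 0.919).

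The genes with a profile most like that of SCN3A were sought by the Euclidean distance between log2 CPM values centred on each gene's mean, over the 4 libraries and 16038 genes with at least 200 counts. The median distance was 6.42. The nearest were RSAD2 (distance 2.27), GBP5 (2.45), OAS1 (2.68), IFI44 (2.78), ABCC9 (3.01) and HS6ST3 (3.03). RSAD2, which encodes the antiviral protein viperin, had 228 counts in PC3 with circ0003553 and 14 in PC3 with control, and 18 in DU145 with circ0003553 and 0 in DU145 with control. IFI44 had 8154 counts in PC3 with circ0003553 and 1216 in PC3 with control, and 933 in DU145 with circ0003553 and 161 in DU145 with control, at ratios of 5.58 (5.26 to 5.94) and 6.22 (5.26 to 7.40). ABCC9, a regulatory subunit of potassium channels gated by ATP, had 909 counts in PC3 with circ0003553 and 261 in PC3 with control, and 60 in DU145 with circ0003553 and 24 in DU145 with control. In DU145 with circ0003553 and control, OAS1 had 41 and 5 counts, GBP5 4 and 0, and HS6ST3 0 and 0. The counts of GBP5 and HS6ST3 are too few for a comparison in that line. All 6 were highest in PC3 with circ0003553, where the profile of SCN3A also peaks, so this comes largely from the search itself. The largest of their PC3 ratios was 13.6, in RSAD2. SCN3A was picked for its large rise in PC3, so its larger PC3 ratio says nothing particular of these 6 genes. With 4 libraries, such likeness describes only these samples, and 3 of the 6 genes were kept with a minimum of 50 counts and 3 with a minimum of 500. At a minimum of 50 counts the nearest profile was that of AC013463.2, which shares exon bases with SCN3A.

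**Figure D5:**
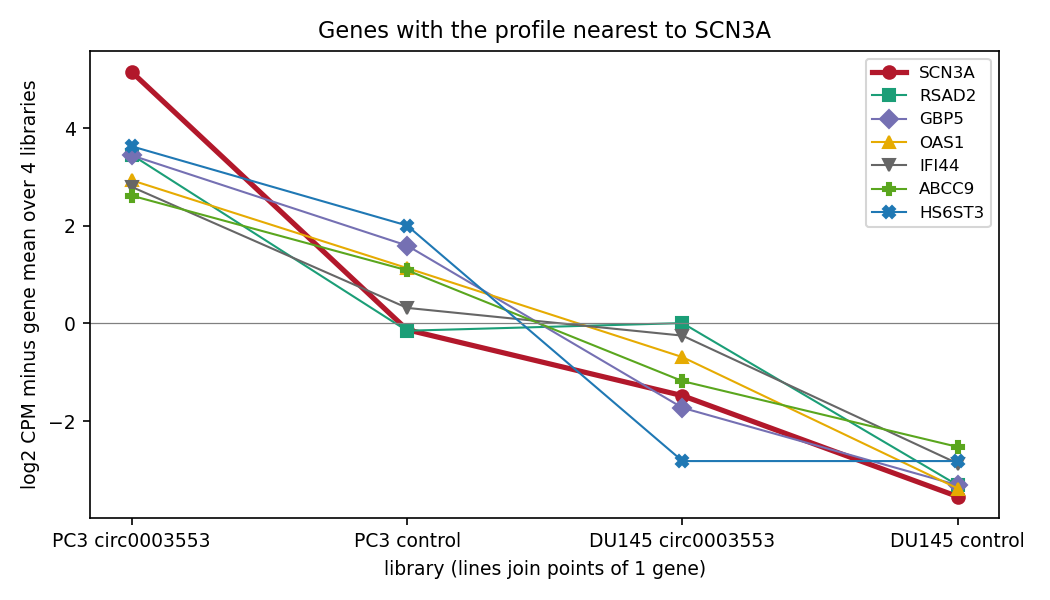
Log2 CPM (prior count 2) minus the gene's mean over the 4 libraries, for SCN3A and the 6 genes nearest to it in profile; each line joins the points of 1 gene across PC3 with circ0003553, PC3 with control, DU145 with circ0003553 and DU145 with control. SCN3A, which was picked for its large rise in PC3, has the highest point in PC3 with circ0003553 of the 7 genes.

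Promoter sequence, 250 bases before to 50 after the start of the gene from RefSeq (GRCh38.p14), was matched for 5 of the 8 subunit genes: SCN1A, SCN2A, SCN8A, SCN9A and SCN4B. SCN3A, SCN4A and SCN3B are named only. SCN1A and SCN2A had 2 promoters each. A gene was counted where any of its promoters held the letters, while the percentages are per promoter, so these measures are not like for like. On either strand, the letters GGGCGG of the GC box bound by SP1 occurred in 3 of the 5 (SCN8A, SCN9A and SCN4B), and in 45.0% of 35116 promoters. The interferon-stimulated response element, searched as GAAA, any 2 bases and GAAA, occurred in 0 of the 5 and in 3.57% of all promoters. Of the other motifs searched, the TATA box (TATAAA) occurred in 1 of the 5 and in 11.5% of all promoters, the CCAAT box (CCAAT) in 2 of the 5 and 34.6%, and the AP-1 site (TGANTCA) in 1 of the 5 and 7.71%. The STAT-bound GAS element (TTC, any 3 bases, GAA), the cyclic AMP response element (TGAC then GTCA) and the E-box (CACGTG) occurred in 0 of the 5, and in 7.66%, 1.85% and 7.26% of all promoters in the order named. Of the 5 profile neighbours with a promoter in the table, RSAD2 and IFI44, with 2 promoters each, held the interferon-stimulated response element. The GC box, the TATA box and the CCAAT box each occurred in 2 of these 5 as well. The GAS element occurred in 1 (OAS1), and the other motifs in 0. A match of letters is not evidence of binding.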

How the data were processed

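RNA of 4 libraries, 1 per group, was compared. Per the labels' protocols, TRIzol RNA was treated with DNase I, ribosomal RNA was removed and stranded libraries with molecular identifiers were sequenced from both ends. Per the submitters' processing notes, the build was hg38 and the tools included featureCounts, edgeR 3.12.1, Trimmomatic 0.36 and Subread 1.5.1. What aligned the reads, which strand setting was used and how the molecular identifiers were handled is not given in the sources used here. Each library's deposited gene counts are whole numbers and not normalized, and the deposited RPKM equalled those counts divided by gene length and library total, to a relative difference of at most 8.7e-14. Count columns were matched to samples by their names.

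The 8 members and the 14 gene lists were chosen with earlier results of these data known. Genes were named by rule: the 8 members, listed genes called across lines or 2-fold apart in a line with at least 50 counts, protein-coding genes within 2 Mb of SCN3A with at least 50 counts, genes sharing exon bases with a member, and the 6 profiles nearest to that of SCN3A. Listed genes outside the rule (SCN2B, SCN7A, SCN10A, SCN11A, DLG1 and REST, markers, RCAN3) were named after their values were seen.

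Within a line, ratios of TMM-scaled CPM carry exact conditional binomial (Clopper-Pearson) 95% intervals, and levels carry exact Poisson intervals. Both cover counting error only. Across lines, edgeR 4.0.16 (R 4.3.3) fitted line and plasmid additively to 21731 genes by quasi-likelihood, with TMM, low-count filtering by plasmid and Benjamini-Hochberg adjustment at 0.05, after a check on simulated counts. The pairing comes from the labels, since each line received both plasmids. The labels do not say that the libraries came from separate cultures. A plasmid effect that differs between lines could not be tested with 1 library per group. DESeq2 1.42.0 and limma 3.58.1 were alternatives, as were other scalings, filters, dispersions, halved counts and leaving out libraries. Gene types and transcripts came from GENCODE release 29. Some genes of the family and some sequences are not reported here.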

Additional observations from a re-analysis of the deposited data

Results flagged for a closer look

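SCN2A and SCN8A lay on opposite sides of 1 in the 2 lines, in the ratio of circ0003553 to control. SCN2A had a ratio of 2.15 in PC3 (95% interval 1.46 to 3.21) and, with 0 counts in DU145 with circ0003553 against 13 in DU145 with control, a bound of 0.248 in DU145 taken at a floor of 3 counts, where the 95% interval reaches up to 0.352. SCN8A had a ratio of 1.05 in PC3 (0.983 to 1.11), an interval that holds 1, and of 0.870 in DU145 (0.800 to 0.945). The difference between the lines was not tested for either gene, since 1 library per group leaves no replicate for it.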

How the results depend on the processing

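Of 84 recomputed within-line ratios of the members, 83 kept their side of 1, including all those of SCN3A. The exception was SCN4B in PC3, all at or under the floor, whose 2 counts with circ0003553 and 1 with control became 1 and 1 when halved and rounded up. These settings only rescale, halve or shrink a ratio, so one as large as those of SCN3A could not have crossed 1. Total counts and deposited RPKM gave the same ratios, so the 84 are not all distinct. Plain ratios were also recomputed with a prior count of 2, and line differences within each plasmid, both chosen after seeing the data. The number of genes called for the plasmid across lines, 101, was 116 with DESeq2 size factors, 77 with halved counts, 63 with DESeq2, 53 with edgeR's older dispersion estimate, 48 when genes with shared exon bases were left out (fewer genes were tested), 26 with limma-voom and 9 with no low-count filter. Without the replicate block of cell line it was 0, with 26 genes at an unadjusted p under 0.05 in edgeR. The subunits other than SCN3A called numbered 0 in each of these fits, which covered 5 subunits, except 7 with no low-count filter, 4 with halved counts, 3 without genes that share exon bases, and 2 with an adjusted p in DESeq2. The fitted SCN2A change of 0.61 turned to -0.034 with limma-voom and -1.59 with DESeq2. From CPM with a prior count of 2, it was 1.07 in PC3 alone and -2.82 in DU145 alone. The DU145 value sets 0 counts with circ0003553 against 13 with control, so its size depends on the prior count. Genes called between the lines numbered 14332, 10085 with DESeq2 and 7040 without the genes that share exon bases. The other fits called from 13191 to 14373. Of the 6 genes most like SCN3A, 3 were shared at a minimum of 50 counts and 3 at 500. Apart from the fewer genes tested, the cause of these shifts was not tested. Depth limits SCN1A, SCN4A and SCN4B most, with at most 4, 18 and 2 counts in a library.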
